A study of Mus musculus with 18 samples.

Results

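Osteoglycin (Ogn) and 8 related small leucine-rich proteoglycans were examined in fibroblasts that had entered a collagen gel and in those that had stayed on top of it. The 9 genes, Ogn, Dcn, Lum, Bgn, Fmod, Prelp, Aspn, Omd and Podn, were taken by symbol from 19938 genes that the array represents by a probe set with exactly 1 symbol, and each of the 9 had 1 such probe set. The family was chosen because Ogn is among the genes with the lowest level in the invading fraction relative to the non-invading one. The values of Ogn in that comparison are therefore given as a description with no test. The other 8 genes were taken as its family, with earlier results of these data known when the members were chosen. All samples came from MLg 2908, a line of wild-type lung fibroblasts of newborn ddY mice, seeded on a 3D collagen matrix. The groups were the invading (5 samples) and non-invading (5 samples) fractions after 96 hours and the invading (4 samples) and non-invading (4 samples) fractions after 72 hours, each sample being named a biological replicate. The treatment entry shared by all 18 samples mentions TGFB1 beside the invasion assay, while the titles name no treatment and the study marks these cells as not treated. All cells belong to 1 line, so the samples repeat the assay and not the animal.

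Small leucine-rich proteoglycans are secreted proteins built around a curved stack of leucine-rich repeats, which lets many of them bind collagen fibrils and set fibril width and spacing. Several carry chondroitin, dermatan or keratan sulfate chains, and several bind growth factors of the TGFβ and BMP families. Fibroblasts are a main source of decorin, biglycan and lumican in lung connective tissue. Decorin, biglycan and asporin form class I of the family, lumican, fibromodulin, PRELP and osteomodulin class II, osteoglycin class III, and podocan belongs to a further class.

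Several of the genes lie beside each other. In the mouse build GRCm38.p6 Aspn occupies chr13:49544443-49567565, Omd chr13:49582462-49592612 and Ogn chr13:49608015-49624501, and all 3 lie inside the interval of Cenpp, a gene for a centromere protein, at chr13:49464025-49652950. Dcn (chr10:97479500-97518163) and Lum (chr10:97565501-97572703) are also direct neighbours. Prelp (chr1:133910304-133930102) and Fmod (chr1:134037254-134048280) share a stretch of chromosome 1, Bgn lies at chrX:73483601-73495936 and Podn at chr4:108014793-108031954. Prelp alone of the members other than Ogn had an adjusted p under 0.10 for a lower level in invading samples at both times, without pairing. The 250 bases before the RefSeq start are shown for Prelp and for the 3 neighbours on chromosome 13, whose ratios between the fractions differed in size. They cover chr13:49607765-49608014 for Ogn, chr13:49582212-49582461 for Omd and chr13:49544193-49544442 for Aspn, all on the plus strand, and chr1:133921402-133921651 on the minus strand for Prelp, whose listed start lies inside the gene interval given above and not at its outer 5′ end. Capitals mark GGAATG, the core that TEAD factors bind, and TATAAA, the TATA box, on either strand.
Ogn: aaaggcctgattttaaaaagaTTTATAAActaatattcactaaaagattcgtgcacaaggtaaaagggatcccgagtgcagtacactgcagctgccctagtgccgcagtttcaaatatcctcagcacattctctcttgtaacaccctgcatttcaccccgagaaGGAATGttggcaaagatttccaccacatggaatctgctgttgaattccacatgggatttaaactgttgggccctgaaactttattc
Omd: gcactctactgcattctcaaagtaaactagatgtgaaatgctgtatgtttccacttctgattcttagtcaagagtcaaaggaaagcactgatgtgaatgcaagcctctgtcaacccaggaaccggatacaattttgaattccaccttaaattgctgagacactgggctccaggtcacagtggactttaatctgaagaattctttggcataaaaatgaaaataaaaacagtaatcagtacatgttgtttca
Aspn: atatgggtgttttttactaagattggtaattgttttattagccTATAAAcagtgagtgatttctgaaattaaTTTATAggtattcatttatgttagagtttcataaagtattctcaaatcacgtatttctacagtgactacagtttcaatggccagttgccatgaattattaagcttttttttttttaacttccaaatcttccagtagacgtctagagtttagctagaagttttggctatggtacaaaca
Prelp: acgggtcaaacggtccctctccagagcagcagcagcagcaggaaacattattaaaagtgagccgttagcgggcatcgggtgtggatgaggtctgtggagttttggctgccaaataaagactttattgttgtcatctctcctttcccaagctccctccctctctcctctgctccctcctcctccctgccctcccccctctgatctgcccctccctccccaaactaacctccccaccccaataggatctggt
In the window of Ogn GGAATG began 86 bases before the start, and TATAAA began 229 and 227 bases before it, as 2 overlapping matches on opposite strands. The window of Aspn held TATAAA 207 and 178 bases before the start, and those of Omd and Prelp held neither. Of 32851 mouse promoter windows of the same length, 12.6% held GGAATG and 12.4% TATAAA on either strand. Of 7 members with a promoter in the table (8 windows, since Podn had 2), GGAATG stood in that of Ogn and TATAAA in those of Ogn and Aspn. Searched the same way, TGANTCA, the AP-1 site, was in 0 of the 8 windows (6.75% of all), GGGCGG, the GC box, in 2 (32.7%) and CANNTG, the E-box, in 6 (66.2%). These are matches of letters, and no binding was measured.

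The signal of each probe set is a log2 value from robust multi-array averaging (RMA), so that a difference of 1 is a doubling. Array medians lay between 6.46 and 6.65, and samples of 1 group correlated at 0.991 to 0.996 over all probe sets. Markers were checked first. Of 8 fibroblast markers 7 were above a linear signal of 100 in all 18 samples (Thy1 in none), with summed linear signals of 44728 to 48677 in the invading and 46332 to 50279 in the non-invading samples at 96 hours, and of 41436 to 47397 and 47192 to 49339 at 72 hours. The defining markers of endothelial cells (5 of 5), immune cells (4 of 5) and epithelium (6 of 8) were at 100 or less in every sample, and the brighter ones are described with the other marker lists at the end. RNA came from bulk fractions, where fewer cells that make a transcript and less of it per cell cannot be told apart. A linear signal of 100 is used below as the line between dim and bright probe sets. No filter on low values was applied, so all 9 genes were tested, of which Aspn and Omd were dim in all 18 samples and the other 7 bright in all 18. Passing the test means an adjusted p under 0.10 over all 35556 probe sets.

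**Figure D1:**
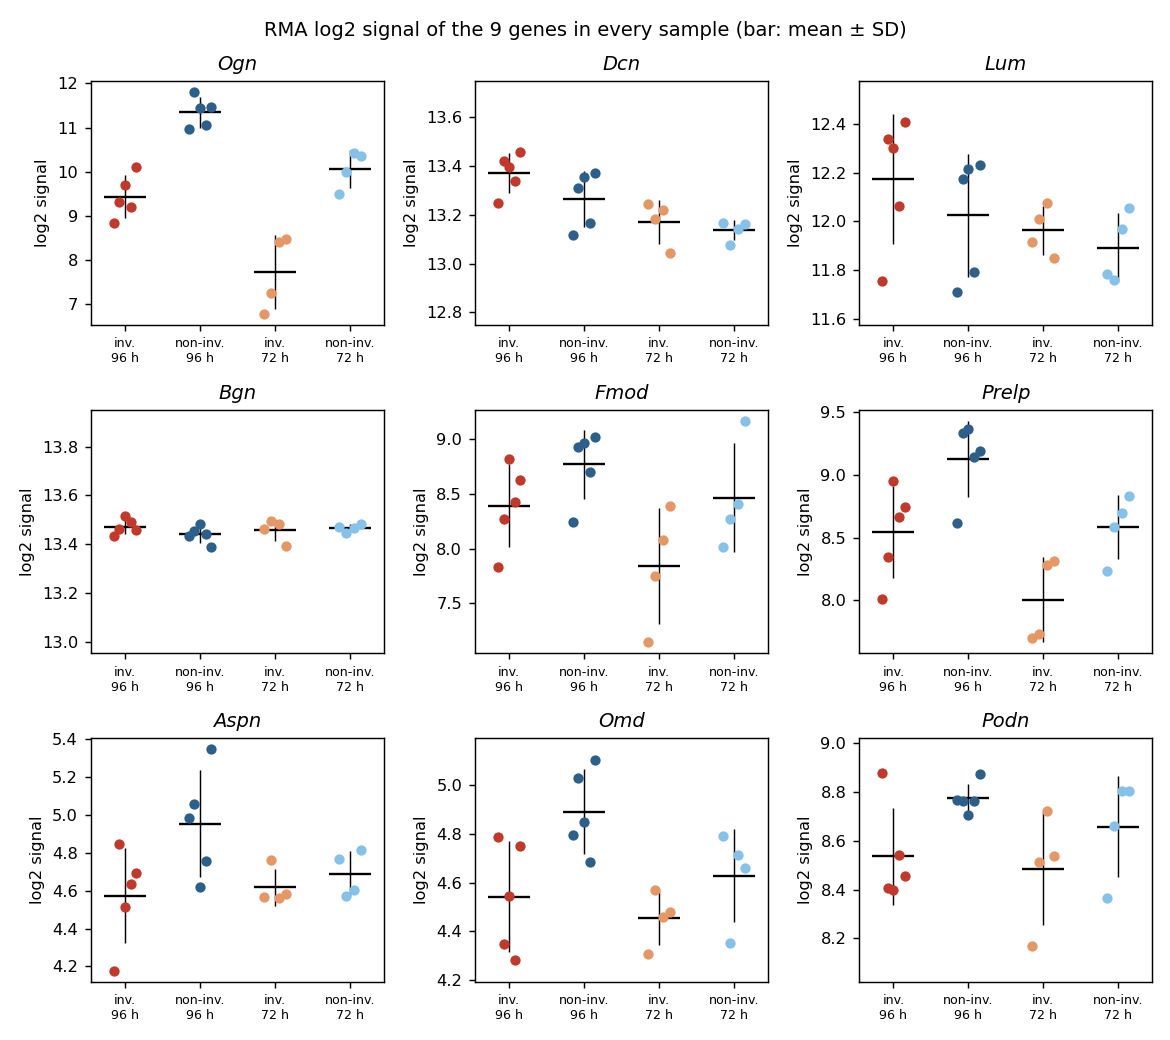
RMA log2 signal (y axis, own range in each panel) of the 9 genes in every sample, grouped on the x axis as invading and non-invading at 96 hours (5 samples each) and at 72 hours (4 each); points are samples and bars the mean ± SD. Ogn separates the fractions without overlap at both times, whereas the points of Dcn, Lum and Bgn intermingle between fractions and those of Prelp lie lower in the invading samples with some overlap.

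Ogn was lower in every invading sample than in any non-invading sample of its time. At 96 hours its log2 signals were 8.83, 9.30, 9.69, 9.21 and 10.11 in the invading samples, against 10.96, 11.80, 11.44, 11.05 and 11.46 in the non-invading samples. On the linear scale these are signals of 455 to 1103 in the invading and 1986 to 3573 in the non-invading fraction. At 72 hours the log2 signals were 6.78, 7.26, 8.40 and 8.48 in the invading samples, against 9.49, 9.98, 10.43 and 10.37 in the non-invading samples, or 110 to 356 and 720 to 1381 on the linear scale. The 2 lower invading samples at 72 hours, replicates 1 and 2, stood over 1 log2 unit below the other 2, so the spread was widest in this group. The group means were 9.43 ± 0.49 in the invading and 11.34 ± 0.34 in the non-invading fraction at 96 hours (SD, n = 5 each), and 7.73 ± 0.84 and 10.07 ± 0.43 at 72 hours (SD, n = 4 each). Invading over non-invading, the ratio was 0.265 at 96 hours (log2 ratio -1.91, standard error (SE) 0.23, 95% interval -2.42 to -1.41) and 0.198 at 72 hours (log2 ratio -2.34, SE 0.39, 95% interval -3.21 to -1.47). Leaving out any 1 sample left the log2 ratio between -2.08 and -1.76 at 96 hours and between -2.59 and -2.02 at 72 hours. Of all genes, 8.80% had every invading sample below every non-invading one at 96 hours and 12.3% at 72 hours. Among the other 8 members no gene had this separation in either direction at either time.

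Of the 8 relatives, 4 were lower in the invading fraction at 96 hours, namely Prelp, Omd, Podn and Aspn, and 0 were higher. Among all genes 14.7% were lower and 16.7% higher at that time. With every array centred on its own median, which adds 0.119 to the median log2 ratio of all genes at 96 hours, the split became 1 lower (Prelp) and 2 higher (Dcn and Bgn), and the share of all genes 7.92% lower and 45.7% higher. Quantile normalization applied again left 2 lower and 0 higher, with 12.5% and 38.6% of all genes. At 72 hours 1 of the 8, Prelp, was lower and 0 were higher, against 13.5% lower and 13.0% higher among all genes. This count of 1 stayed under both other scalings, where 9.35% (centring) and 11.7% (quantile) of all genes were lower and 25.2% and 25.3% higher. The median log2 ratio of the 8 was -0.29 at 96 hours and -0.12 at 72 hours, and that of all genes was 0.02 and 0.04. The direction of Prelp was the same under each of these scalings, and it is the only one of the 8 that passed at 96 hours under all 3.

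**Figure D2:**
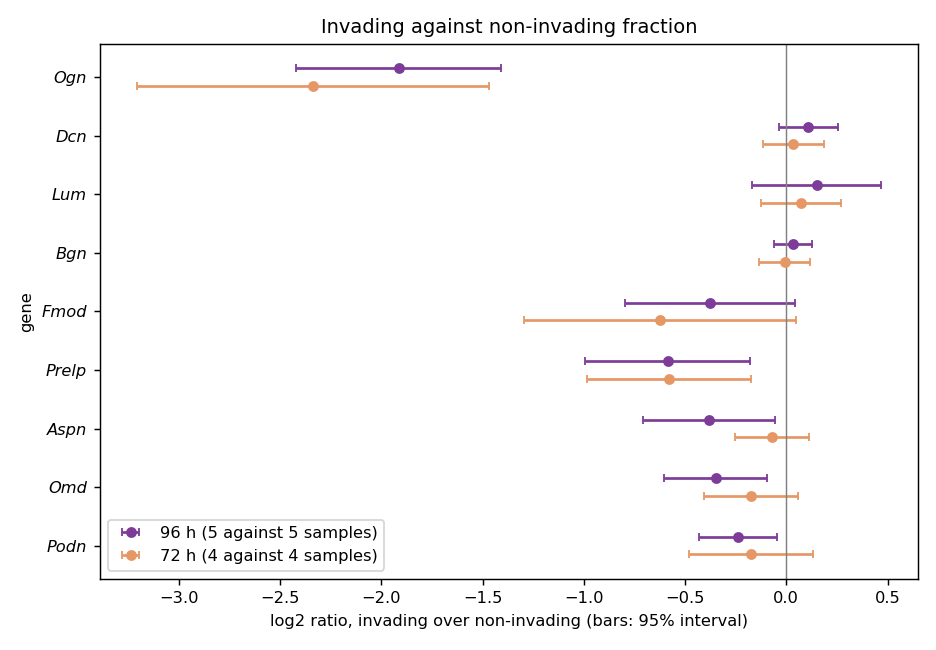
Log2 ratio of the invading over the non-invading fraction (x axis) for the 9 genes (y axis), at 96 hours (5 against 5 samples) and 72 hours (4 against 4 samples); points are ratios of group means and bars 95% intervals. Ogn lies at -1.91 and -2.34, Prelp at -0.59 and -0.58, and Dcn and Bgn within 0.11 of 0 at both times.

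Within class II, the ratios of Prelp and Fmod lay farthest below 1. Prelp, a basic protein of connective tissue that can bind heparan sulfate and collagen, had log2 signals of 8.01, 8.35, 8.95, 8.67 and 8.75 in the invading samples at 96 hours, against 8.61, 9.33, 9.37, 9.15 and 9.19 in the non-invading samples. All 5 invading samples lay below the non-invading mean of 9.13, and non-invading replicate 1 lay inside the invading range. The ratio was 0.666 (log2 ratio -0.59, SE 0.19, adjusted p = 0.0368). At 72 hours Prelp had 7.69, 7.73, 8.28 and 8.32 in the invading samples, against 8.23, 8.59, 8.69 and 8.83 in the non-invading samples. Here too all 4 invading samples lay below the non-invading mean of 8.59. The ratio was 0.669 (log2 ratio -0.58, SE 0.18, adjusted p = 0.0504). The call at 96 hours was kept when any 1 sample was left out (adjusted p 0.0108 to 0.0848). That at 72 hours was not, the adjusted p being 0.119 and 0.123 without invading replicate 1 or 2 and 0.115 and 0.125 without non-invading replicate 3 or 4.

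Fmod, which encodes fibromodulin, a collagen-binding regulator of fibril growth, did not pass the unpaired test at either time. Its log2 signals at 96 hours were 7.83, 8.27, 8.82, 8.42 and 8.63 in the invading samples, against 8.25, 8.93, 8.96, 8.70 and 9.02 in the non-invading samples. At 72 hours they were 7.15, 7.75, 8.07 and 8.39 in the invading samples, against 8.02, 8.27, 8.41 and 9.17 in the non-invading samples. The fractions overlapped at both times, and the spread within a fraction was about as wide as the difference between them. The log2 ratios were -0.38 (95% interval -0.80 to 0.04, adjusted p = 0.174) and -0.62 (95% interval -1.30 to 0.05, adjusted p = 0.18), so that no change and a ratio well below 1 both lie within the intervals. Without invading replicate 3 or non-invading replicate 1 it passed at 96 hours (adjusted p = 0.0941 and 0.0555). With the replicate number as a block Fmod passed at both times (adjusted p = 0.0138 at 96 hours and 0.0148 at 72 hours). Its invading sample was the lower one in 9 of 9 pairs of the same number and time, as for Prelp. This was so in 8 of 9 pairs for Aspn, Omd and Podn, in 2 for Bgn and in 1 each for Dcn and Lum. The share of all genes with such counts was not taken. The study treated the fractions as paired when it tested receptor levels from these arrays, whereas for the test across all probe sets no pairing is given, and the labels do not say which samples belong together.

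Lum, which encodes lumican, a keratan sulfate proteoglycan that keeps collagen fibrils thin and evenly spaced, had signals of 11.76 to 12.41 in the invading and 11.71 to 12.23 in the non-invading samples at 96 hours, and of 11.85 to 12.08 and 11.76 to 12.06 at 72 hours. The ranges of the fractions almost coincided. The log2 ratio was 0.15 at 96 hours (95% interval -0.17 to 0.47, adjusted p = 0.491) and 0.07 at 72 hours (95% interval -0.13 to 0.27, adjusted p = 0.619). With the replicate block Lum passed as higher at 96 hours (adjusted p = 0.0821).

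Omd, the neighbour of Ogn, encodes osteomodulin, a keratan sulfate proteoglycan known from bone. Its probe set was dim, at a linear signal of 100 or less in all 18 samples. At 96 hours its log2 signals were 4.79, 4.35, 4.54, 4.28 and 4.75 in the invading samples, against 4.79, 5.03, 4.85, 4.68 and 5.10 in the non-invading samples. All 5 invading samples lay below the non-invading mean of 4.89, with overlap at the edges. The ratio was 0.785 (log2 ratio -0.35, SE 0.12, adjusted p = 0.0444). At 72 hours the range was 4.31 to 4.57 in the invading and 4.35 to 4.79 in the non-invading samples (log2 ratio -0.17, 95% interval -0.41 to 0.06, adjusted p = 0.276). The call at 96 hours ended with quantile normalization applied again (adjusted p = 0.126), with median centring (0.144), and without invading replicate 2 (0.101) or 4 (0.101) or non-invading replicate 5 (0.104). At 72 hours Omd passed without non-invading replicate 2 (adjusted p = 0.064).

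Among the class I genes Dcn and Bgn were bright and close to level between fractions. Dcn encodes decorin, which binds collagen fibrils and TGFβ. Its log2 signals at 96 hours were 13.25, 13.42, 13.40, 13.34 and 13.46 in the invading samples, against 13.12, 13.31, 13.35, 13.17 and 13.37 in the non-invading samples. At 72 hours they lay between 13.04 and 13.24 in the invading samples, against 13.08 to 13.17 in the non-invading samples. The log2 ratio was 0.11 at 96 hours (95% interval -0.04 to 0.25, adjusted p = 0.26) and 0.03 at 72 hours (95% interval -0.12 to 0.18, adjusted p = 0.761). Bgn, the gene of biglycan, had 13.43 to 13.52 in the invading and 13.39 to 13.48 in the non-invading samples at 96 hours, and 13.39 to 13.49 and 13.45 to 13.48 at 72 hours. Its log2 ratio was 0.03 (95% interval -0.06 to 0.13, adjusted p = 0.639) at 96 hours and -0.01 (95% interval -0.14 to 0.12, adjusted p = 0.938) at 72 hours. These intervals are the narrowest of the 9 genes at 96 hours. Both genes passed as higher at 96 hours once arrays were centred on their medians (log2 ratio 0.23, adjusted p = 0.018 for Dcn and 0.15, adjusted p = 0.0229 for Bgn), and the sign of Bgn turned at 96 hours with quantile normalization applied again and at 72 hours with median centring.

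Aspn, the remaining class I gene, encodes asporin, which binds collagen and TGFβ1, and was dim in all 18 samples. At 96 hours its log2 signals were 4.18, 4.85, 4.51, 4.64 and 4.70 in the invading samples, against 4.99, 5.06, 4.62, 4.76 and 5.35 in the non-invading samples. All 5 invading samples lay below the non-invading mean of 4.95, and the ratio was 0.768 (log2 ratio -0.38, SE 0.15, adjusted p = 0.0812). At 72 hours invading samples lay between 4.56 and 4.76 and non-invading samples between 4.57 and 4.81 (log2 ratio -0.07, 95% interval -0.25 to 0.11, adjusted p = 0.588). The call at 96 hours was lost with quantile normalization applied again (adjusted p = 0.168), with median centring (0.157), and without replicate 1, 3 or 4 of the invading or 1, 2 or 5 of the non-invading samples (0.114 to 0.174). Among the 7987 genes that stayed at 100 or less in all samples, 4.37% had a lower level in invading samples at 96 hours and 1.45% at 72 hours.

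Podn encodes podocan, a relative known in mice to restrain the growth of vascular smooth muscle cells. At 96 hours its log2 signals were 8.88, 8.41, 8.40, 8.54 and 8.46 in the invading samples, against 8.77, 8.76, 8.71, 8.76 and 8.87 in the non-invading samples. Invading replicate 1 was the highest of the 10 samples, and the other 4 invading samples lay below every non-invading one. The ratio was 0.848 (log2 ratio -0.24, SE 0.09, adjusted p = 0.0684). Without invading replicate 1 the log2 ratio was -0.32 (adjusted p = 0.00196). The call was lost without replicate 2, 3, 4 or 5 of the invading or 1, 2 or 5 of the non-invading samples (adjusted p 0.103 to 0.152), with median centring (0.329) and in 1 fit over all 18 samples (0.117). At 72 hours the range was 8.17 to 8.72 in the invading and 8.37 to 8.81 in the non-invading samples (log2 ratio -0.17, 95% interval -0.48 to 0.13, adjusted p = 0.418).

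The later time was then set against the earlier one within each fraction. These are the samples in which Ogn was chosen, so its values between times are also given as a description with no test. Ogn was higher at 96 than at 72 hours in both fractions, and no 72-hour sample reached the 96-hour range of the same fraction. Its ratio of 96 over 72 hours was 3.25 among invading samples (log2 ratio 1.70, SE 0.33) and 2.42 among non-invading samples (log2 ratio 1.27, SE 0.33). Every 96-hour sample was above every 72-hour sample for 13.3% of all genes in the invading and 12.2% in the non-invading fraction. With any 1 of the 18 samples left out the log2 ratio lay between 1.38 and 1.95 in the invading and between 1.08 and 1.40 in the non-invading fraction. With the time, the invading samples at 96 hours (8.83 to 10.11) came to overlap the non-invading samples at 72 hours (9.49 to 10.43), so in order of mean level the groups stood as non-invading at 96 hours, non-invading at 72 hours, invading at 96 hours and invading at 72 hours, of which the middle pair overlapped.

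Of the other 8 members, 2 were higher at 96 hours in the invading fraction (Dcn and Prelp) and 0 lower, against 18.2% higher and 16.7% lower among all genes. In the non-invading fraction 1 was higher (Prelp) and 0 lower, against 15.4% and 12.2% (13.1% and 17.4% with quantile normalization applied again). The median log2 ratio of the 8 was 0.14 in the invading and 0.20 in the non-invading fraction, and that of all genes -0.03 and -0.02. Prelp had a ratio of 1.45 among invading samples (log2 ratio 0.54, SE 0.20, adjusted p = 0.0568) and 1.46 among non-invading samples (log2 ratio 0.54, SE 0.20, adjusted p = 0.0632). Its samples overlapped between the times in both fractions. The call of Prelp was lost in the invading fraction without replicate 1 or 2 at 72 hours or 3, 4 or 5 at 96 hours (adjusted p 0.105 to 0.17) and with quantile normalization applied again (0.106), and in the non-invading fraction without replicate 1 or 2 at 72 hours or 2, 3 or 5 at 96 hours (0.111 to 0.181). Dcn was 1.15 times as high at 96 hours in the invading fraction, where its lowest 96-hour sample (13.25) stood just above the highest 72-hour sample (13.24) (log2 ratio 0.20, SE 0.06, adjusted p = 0.0293, and 0.11 without invading replicate 4 at 72 hours). In the non-invading fraction the log2 ratio of Dcn was 0.13 (95% interval -0.01 to 0.26, adjusted p = 0.187).

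The remaining members did not pass between times. Fmod had log2 ratios of 0.55 in the invading (adjusted p = 0.14) and 0.31 in the non-invading fraction (adjusted p = 0.463), Lum of 0.21 (adjusted p = 0.279) and 0.13 (adjusted p = 0.545). Omd had 0.26 in the non-invading fraction (adjusted p = 0.13) and Aspn 0.27 (adjusted p = 0.186). Bgn was within 0.03 of 0 in both. The test of the difference between the 96-hour and the 72-hour log2 ratio of the fractions found 0 of the 8 members other than Ogn past the threshold, where 0.0150% of all genes passed. The difference for Ogn was 0.42 (95% interval -0.56 to 1.41), a description only. Prelp had a difference of -0.005 (95% interval -0.60 to 0.59, adjusted p = 0.999), Fmod of 0.25 (-0.53 to 1.03, adjusted p = 0.903) and Aspn of -0.31 (-0.71 to 0.09, adjusted p = 0.702). At an unadjusted p under 0.05, limma also gave 0 of these 8, against 8.14% of all genes. The time comparisons share samples with the comparisons of fractions.

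**Figure D3:**
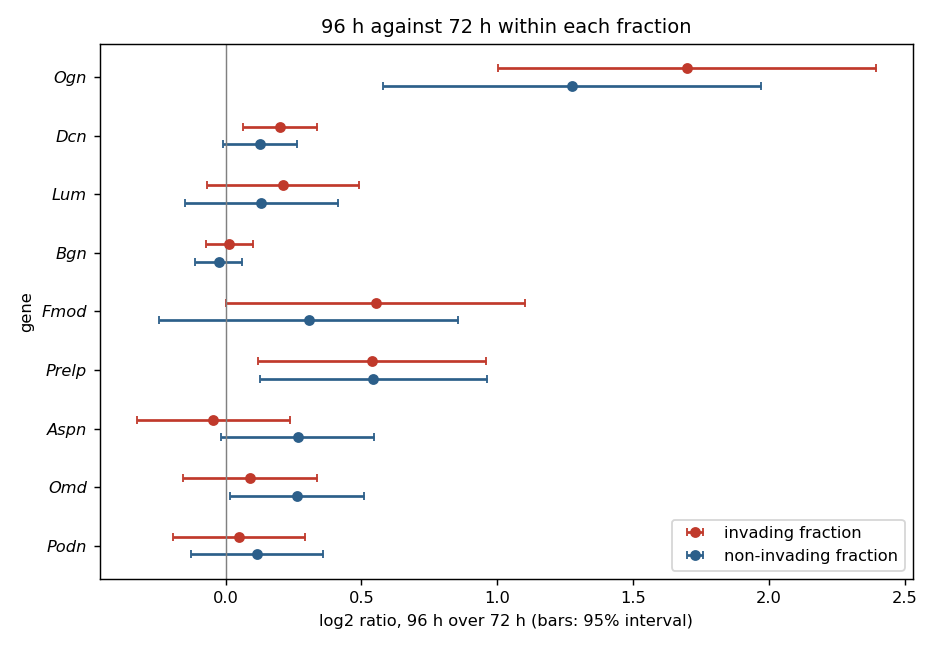
Log2 ratio of 96 over 72 hours (x axis) for the 9 genes (y axis) in the invading fraction (5 against 4 samples) and the non-invading fraction (5 against 4 samples); points are ratios of group means and bars 95% intervals. Ogn stands at 1.70 and 1.27 and Prelp at 0.54 in both fractions, while the intervals of Bgn, Lum and Podn span 0.

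Genes whose pattern over the 18 samples was most like that of Ogn were found by the root mean square difference between log2 signals, each gene centred on its own mean. The nearest was Sema3c, a secreted semaphorin that guides cell movement, at 0.602 log2 units, where the median over 19937 genes was 1.40. It was followed by the locus of the microRNA Mir181b-2 (0.736), Zfp40, a zinc finger gene (0.742), Clk1, a kinase of splicing factors (0.754), and Ttc14 (0.760). These genes were picked for likeness to Ogn in these same samples, so ratios resembling those of Ogn follow from the choice. Sema3c had invading over non-invading ratios of 0.249 at 96 hours and 0.305 at 72 hours, against 0.265 and 0.198 for Ogn. Its 96-hour samples stood less far above the 72-hour samples than those of Ogn did, with ratios of 1.53 in the invading and 1.87 in the non-invading fraction. Among the members Prelp came closest to Ogn, at rank 83 (0.944), then Fmod at rank 148 (1.00). Omd (rank 1926), Podn (2769) and Aspn (2798) were farther away, and Lum (5995), Dcn (6515) and Bgn (8443) were near the middle of the ranking.

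**Figure D4:**
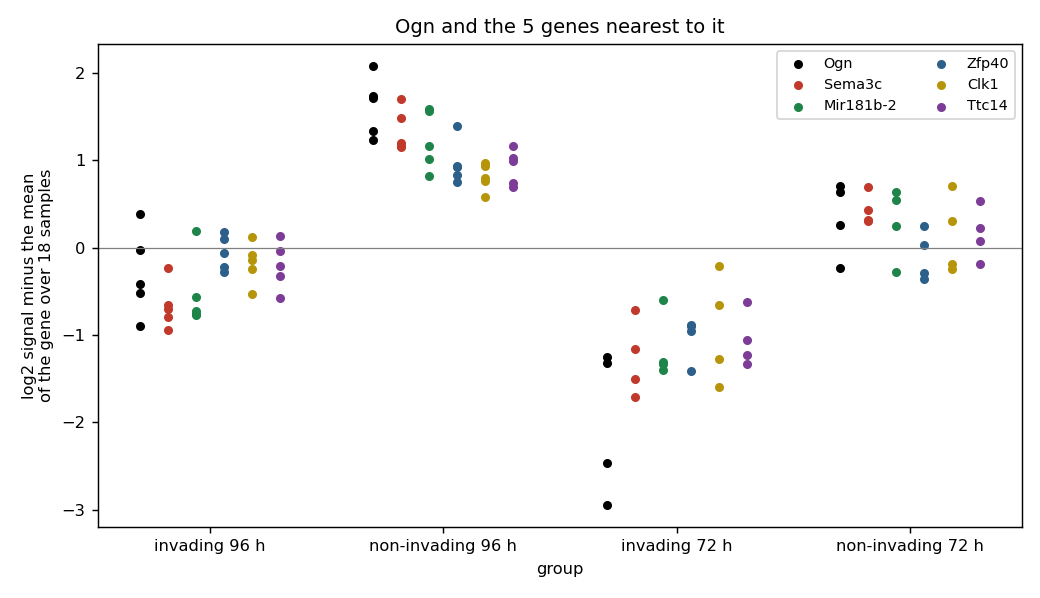
Log2 signal minus the gene's own mean over 18 samples (y axis) for Ogn and the 5 genes nearest to it, by group (x axis); each point is a sample. All 6 genes are highest in the non-invading samples at 96 hours and lowest in the invading samples at 72 hours, with the widest range for Ogn.

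The genes next to the members on the chromosome were read for the same comparison. Cenpp, whose interval contains Ogn, Omd and Aspn, was dim in all 18 samples and had ratios of 0.902 at 96 hours (adjusted p = 0.407) and 0.896 at 72 hours (adjusted p = 0.457); it was picked after its values were seen. Nol8, on the far side of Ogn and coding for a nucleolar protein, stood at 0.868 at 96 hours (adjusted p = 0.166) and 0.773 at 72 hours, where it passed (adjusted p = 0.054). Ecm2, the neighbour of Aspn on the other side and itself a leucine-rich matrix protein, was dim and lower at 96 hours (ratio 0.748, adjusted p = 0.00544), with a ratio of 0.875 at 72 hours (adjusted p = 0.172). Optc, a class III relative known from the vitreous of the eye and the neighbour of Prelp, was lower at both times, with ratios of 0.821 (adjusted p = 0.024) and 0.765 (adjusted p = 0.0189). The 96-hour call of Optc was lost under both other scalings (adjusted p = 0.172 and 0.164). The other measured neighbours were Haus7 and Atp2b3 beside Bgn, which did not pass at either time, and Slc1a7 beside Podn. Slc1a7, dim in all 18 samples, was higher at 72 hours (ratio 1.24, adjusted p = 0.018) and stood at 1.03 at 96 hours (adjusted p = 0.715).

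Among 8 further measured members of the wider family, 3 were lower at 96 hours (Ecm2, Optc and Nyx) and 1 at 72 hours (Optc), and 0 were higher. Nyx, known from the retina, had a ratio of 0.893 at 96 hours (adjusted p = 0.064), a call that was lost under both other scalings (adjusted p = 0.108 and 0.519). The split depended on scaling: it was 1 lower and 1 higher at 96 hours with quantile normalization applied again and 1 lower and 2 higher with median centring, and at 72 hours 1 lower and 1 higher with either. The median log2 ratio of this list was 0.01 at 96 hours and 0.05 at 72 hours.

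Enzymes that build the sugar chains moved in both directions. Of 21 genes of the linkage region and of chondroitin and dermatan sulfate, 5 were lower and 7 higher at 96 hours and 4 lower and 6 higher at 72 hours. Chst11, a chondroitin sulfotransferase, was higher in the invading fraction, with ratios of 1.66 (adjusted p = 4.72e-05) and 1.51 (adjusted p = 0.0188). Csgalnact1, which starts the chondroitin chain, was lower, with 0.699 (adjusted p = 0.0112) and 0.692 (adjusted p = 0.00766), as was Dse, the epimerase that makes dermatan sulfate, with 0.745 (adjusted p = 0.000606) and 0.750 (adjusted p = 0.00581). Median centring gave 2 lower and 12 higher at 96 hours and 3 lower and 7 higher at 72 hours, and quantile normalization applied again 4 and 11 and 4 and 7. Of 9 keratan sulfate enzymes, 1 was lower and 3 were higher at 96 hours and 2 were lower and 1 higher at 72 hours. Chst2, a sulfotransferase of keratan sulfate, stood at 0.863 (adjusted p = 0.073) and 0.707 (adjusted p = 0.0271), and its 96-hour call was lost under both other scalings. St3gal3, a sialyltransferase that caps such chains, was higher, with log2 ratios of 0.24 (adjusted p = 0.00591) and 0.26 (adjusted p = 0.0536). Under both other scalings 0 of the 9 were lower and 4 higher at 96 hours, and at 72 hours 1 was lower and 2 were higher with quantile normalization applied again and 1 and 1 with median centring.

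Of 12 proteases known to cut members of the family, 3 were lower and 6 higher at 96 hours and 2 were lower and 6 higher at 72 hours. Mmp13, a collagenase that also degrades fibromodulin, reached 9.28 (adjusted p = 2.82e-06) and 4.51 (adjusted p = 0.000407), and Mmp3, stromelysin, 7.50 (adjusted p = 1.46e-05) and 4.26 (adjusted p = 0.000588). Adamts5, an aggrecanase, was lower, with 0.434 (adjusted p = 4.8e-05) and 0.473 (adjusted p = 0.000816). These 3 genes separated the fractions without overlap at both times. With median centring 2 were lower and 7 higher at each time, while quantile normalization applied again left the counts as they were.

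Of 19 genes of fibrillar collagens and their partners on the fibril, 9 were lower and 1 higher at 96 hours, and 9 were lower and 0 higher at 72 hours. Col12a1, a collagen on the surface of fibrils, stood at 0.531 (adjusted p = 0.00891) and 0.408 (adjusted p = 0.00227), Col11a1, a minor collagen that starts fibrils, 0.624 (adjusted p = 0.000842) and 0.674 (adjusted p = 0.00276), and Col5a2, of another such collagen, 0.634 (adjusted p = 0.000225) and 0.669 (adjusted p = 0.00358). With median centring the split was 6 lower and 6 higher at 96 hours and 6 lower and 1 higher at 72 hours, and with quantile normalization applied again 9 and 4 and 9 and 1. The median log2 ratio of the list was -0.10 at 96 hours and -0.06 at 72 hours, and turned to 0.02 at both times with median centring. That of all genes was 0.02 and 0.04, and rose to 0.14 and 0.12 with median centring, so the list stayed below all genes.

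Of 23 growth factors and receptors that members of the family bind or engage, 8 were lower and 6 higher at each time. Tgfb1 was higher in the invading fraction, with ratios of 3.29 (adjusted p = 2.82e-06) and 2.40 (adjusted p = 0.000355). Bmp4, a bone morphogenetic protein, was lower, with 0.289 (adjusted p = 4.72e-05) and 0.264 (adjusted p = 0.00243), and so was Ccn2, a matricellular protein, with 0.502 (adjusted p = 0.00127) and 0.421 (adjusted p = 0.0105). With median centring the counts were 7 lower and 9 higher at 96 hours and 8 and 8 at 72 hours. The study itself reported Mmp13 and Tgfb1 as higher in the invading fraction of these arrays, and the lists were chosen with earlier results known. The lists share samples and arrays, and their counts are descriptions set beside the shares of all genes given above.

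**Figure D5:**
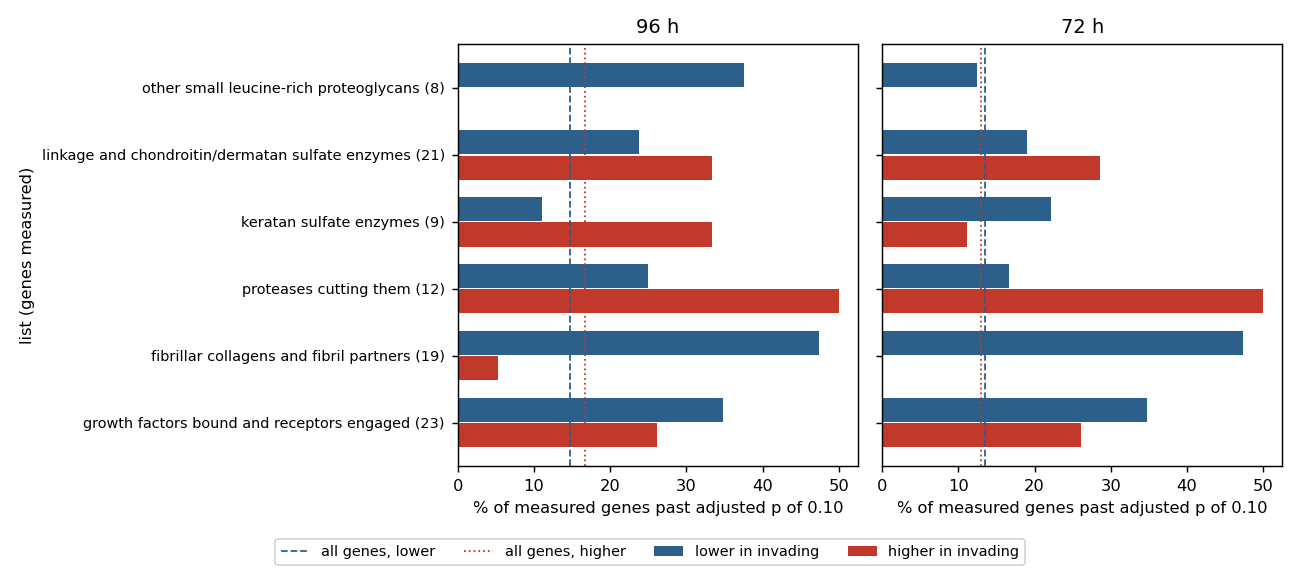
Share of the measured genes of each list (x axis, %) that were lower (blue) or higher (red) in the invading fraction at 96 hours (left) and 72 hours (right), with the share of all genes as dashed and dotted lines and the number of genes measured after each name (y axis). The fibrillar collagen list has 9 of 19 genes lower at both times and the protease list 6 of 12 higher.

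Marker lists of other cell types were read in the same comparison. Of 4 mesothelial markers, Msln (ratios 0.645 and 0.613 at 96 and 72 hours) and Lrrn4 (0.551 and 0.716) were lower in invading samples at both times. Wt1, with log2 ratios of -0.07 and 0.06, and Upk3b, at 100 or less in all 18 samples, did not pass. The summed linear signal of the 4 was 961 to 1500 in the invading and 1471 to 2137 in the non-invading samples at 96 hours, and 965 to 1334 and 1508 to 2065 at 72 hours. Of 5 markers of chondrocytes and tendon cells, which also make several of these proteoglycans, Sox9 was higher at both times (ratios 1.78 and 1.44), and Acan, Col2a1, Scx and Tnmd did not pass. Their sums were 1303 to 1619 in the invading and 891 to 1182 in the non-invading samples at 96 hours, and 1466 to 1648 and 1150 to 1333 at 72 hours. Of 5 markers of smooth muscle and pericytes, Myh11, Des and Cspg4 were higher at 96 hours and 0 passed at 72 hours. Myh11 was at 100 or less in all 18 samples and Des was above 100 in 1 of 18, while Cspg4 was above 100 in all 18. The sums of the 5 were 630 to 720 in the invading and 521 to 585 in the non-invading samples at 96 hours. At 72 hours they were 625 to 845 and 600 to 709. Of 8 epithelial markers, 3 were higher at 96 hours and 1 at 72 hours. Among them Krt8, above 100 in all 18 samples, had ratios of 1.25 and 1.45, and the sums were 608 to 642 in the invading and 494 to 589 in the non-invading samples at 96 hours and 635 to 743 and 540 to 640 at 72 hours. Of 5 immune markers, Cd68 was higher at 96 hours (ratio 1.48, adjusted p = 0.00334) and stood at 1.18 at 72 hours (adjusted p = 0.276), with sums of 305 to 400 in the invading and 259 to 298 in the non-invading samples at 96 hours and of 344 to 420 and 333 to 362 at 72 hours. The 5 endothelial markers were at 100 or less in all 18 samples, and 0 passed at either time. Their sums were 239 to 260 in the invading and 213 to 245 in the non-invading samples at 96 hours. At 72 hours they were 244 to 276 and 232 to 255. Most epithelial, endothelial and immune and some smooth muscle markers were dim. A higher sum is therefore not by itself a sign of more such cells. The part of other cell types in the values of the 9 genes was not tested.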

How the data were processed

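Total RNA of each fraction (miRNeasy kit) was labelled and hybridised to Affymetrix Mouse Gene 1.0 ST arrays. The values used are log2 signals as deposited by the authors, made with RMA in Expression Console 1.2, which corrects background, normalises between arrays by sketch-quantile and summarises per probe set. No further transformation was applied, and precision is limited by how many arrays there are.

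Of 35556 probe sets, 21789 carry 1 symbol, for 19938 genes, 1621 carry several and 12146 none. A gene was given by its brightest probe set with 1 symbol. Fractions were tested in R 4.3.3 with lmFit and eBayes of limma 3.58.1, separately per time and without covariates. All 18 samples entered 1 fit for 96 against 72 hours and for the difference between times. P-values were adjusted by Benjamini-Hochberg over all probe sets, with 0.10 as threshold. They measure the spread between cultures of 1 line. On simulated data of 35556 probe sets, the test found 97 of 100 2-fold changes at 96 hours (22 unchanged probe sets called) and 93 at 72 hours (24 called). No planted change was smaller than 2-fold, so these rates do not cover the smaller changes of the members other than Ogn. Named are the members, their neighbours, the 5 genes nearest to Ogn and up to 3 genes of each list, by size of ratio among those past the test. The members and lists were chosen with earlier results of these data known. Alternatives were other scalings, filters, variance models, thresholds, the replicate number as a block and leaving out each sample. The other scalings of the lists were added after the data were seen. Promoter sequences are those of RefSeq on GRCm38.p6.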

Additional observations from a re-analysis of the deposited data

Results flagged for a closer look

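In 36 sets of samples (9 genes in 4 groups), 1 sample stood apart from the rest of its group. For Aspn in the invading fraction at 72 hours, replicate 2 had a log2 signal of 4.76, the next highest was 4.58, and this gap made up 0.887 of the range of the 4 samples. Such a gap arises by chance in about 1 of 20 groups, and the probe set is dim in every sample.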

How the results depend on the processing

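The log2 ratio of Ogn stayed between -1.91 and -1.80 at 96 hours and between -2.34 and -2.26 at 72 hours under each other scaling and with the replicate block, and between -2.08 and -1.76 and between -2.59 and -2.02 with 1 sample left out. The count of its 8 relatives past the test was 4 at 96 hours and became 2 with quantile normalization applied again, 2 among probe sets above a signal of 100 (which drops Aspn and Omd), 2 at an adjusted p under 0.05, 1 with a ratio above 1.5 and 1 to 4 with 1 sample left out. With median centring the count at 96 hours was 3, of which 1 was lower and 2 were higher. In the main test 14.7% of all genes were lower at 96 hours. That share was not taken again for the filter, the thresholds or the left-out samples. How far the counts under these settings follow it, here and below, therefore cannot be read. At 72 hours the count was 1 and became 0 at an adjusted p under 0.05, 0 with a ratio above 1.5 and 0 to 2 with 1 sample left out. Between times the count of the 8 relatives was 2 in the invading fraction (Dcn and Prelp), where 18.2% of all genes were higher. Both calls were lost with a ratio above 1.5. With 1 sample left out the call of Dcn was lost in 1 run and that of Prelp in 5, while Fmod passed in 3 and Lum in 1. In the non-invading fraction the count was 1 (Prelp), where 15.4% of all genes were higher. This call was lost at an adjusted p under 0.05 and with a ratio above 1.5. With 1 sample left out it was lost in 5 runs, while Omd passed in 2 and Dcn and Aspn in 1 each. The count for the difference between times was 0 to 0 throughout. The cause of these changes was not tested, except where the filter or threshold itself removes genes. For 1 list, the further small leucine-rich proteoglycans at 72 hours, the total count changed over 1.5-fold, from 1 to 2 with either other scaling. The split into lower and higher also moved in other lists. For fibrillar collagens at 96 hours it went from 9 lower and 1 higher to 6 and 6 with median centring.

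Signs turned only for log2 ratios near 0. Bgn had -0.015 at 96 hours, -0.005 and 0.001 between times in the invading and non-invading fractions and -0.007 for the difference with quantile normalization applied again, and 0.071 at 72 hours with median centring. Aspn had 0.009 at 72 hours and Prelp 0.034 for the difference with median centring, and Podn -0.007 between times in the invading fraction with quantile normalization applied again. With 1 sample left out, the log2 ratio ranged from -0.021 to 0.013 for Bgn at 72 hours, and between times in the invading fraction from -0.007 to 0.027 for Bgn, -0.112 to 0.054 for Aspn and -0.056 to 0.129 for Podn. For the difference it ranged from -0.134 to 0.128 for Prelp and -0.172 to 0.032 for Podn. Of the other values of single genes, 340 kept direction and call, 19 lost and 8 gained the call, not counting samples left out.

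The replicate numbers were not taken as pairs. After removal of group means, samples of 1 number correlated at 0.05 to 0.17 at 96 hours, where 4 of 5 matched best with their own number, and at -0.07 to 0.09 at 72 hours, where 1 of 4 did. With the replicate block the count of relatives was 6 at 96 hours (5 lower, with Fmod added at adjusted p = 0.0138, and Lum higher at adjusted p = 0.0821) and 2 at 72 hours (Prelp, and Fmod at adjusted p = 0.0148), where 2989 of all 19938 genes were lower and 3482 (17.5%) higher at 96 hours and 2331 (11.7%) and 1921 (9.63%) at 72 hours. Between times the block matched equal numbers at 72 and 96 hours, although no label says that they belong together. With it Fmod also passed in the invading fraction (adjusted p = 0.0386), where 17.8% of all genes were higher.

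Each member has 1 probe set, so averaging over probe sets changed nothing. Signals of Aspn and Omd at 100 or less limit what can be read from them.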

Other observations

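For Ogn, Fmod and Prelp, replicate number 1 was the lowest sample in 4 of 4 groups, whereas it was the lowest in 2 of 4 groups for Dcn, Lum and Podn and in 1 of 4 for Bgn, Aspn and Omd. The share of all genes with such counts was not taken, so they cannot be read as a trait of Ogn, Fmod and Prelp. The labels do not say whether samples with the same number were prepared together.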
